A study of Homo sapiens with 12 samples.

Results

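The genes described here are 10 host genes of small nucleolar RNAs (snoRNAs): SNHG1, SNHG3, SNHG5, SNHG6, SNHG7, SNHG8, SNHG12, SNHG15, SNHG16 and GAS5. They were taken as the rows with exactly these names, and all 10 were found in both expression tables, among 23621 genes in all. Poly(A) RNA was sequenced from KURAMOCHI (Ku) and COV362 (Cov), which are both human ovarian cancer cell lines. The question was how transcription responds to THZ1, a covalent inhibitor of CDK7 that also acts on CDK12 and CDK13, kinases that phosphorylate RNA polymerase II. Each line gave 6 libraries, 2 replicates each of cells given DMSO, the vehicle, or THZ1 at 50 nM or 250 nM, all for 6 hr. All cells carried the label of an untransduced control, Ku cells grew in RPMI and Cov cells in DMEM, each with serum and antibiotics, and the replicates are described as biological duplicates. Each condition thus rests on 2 libraries of 1 established line.

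Keratins KRT8 and KRT18 and the lineage factor PAX8 were present in both lines. In DMSO, PAX8 stood at a mean of 136 FPKM in Ku cells and 124 FPKM in Cov cells. In the same group means EPCAM stood at 4.13 FPKM in Ku and 162 in Cov cells, KRT7 at 4.61 and 1355, and MUC16 at 0.166 and 5.71. WT1, a transcription factor found in many serous ovarian cancers, stood at 56.8 FPKM in Ku and 0.653 in Cov cells. PTPRC, CD3E and PECAM1, which mark blood and endothelial cells, stayed at or below 0.338 FPKM in every group mean, while COL1A2, a collagen gene, stood at 42.2 FPKM in Cov cells given DMSO.

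Small nucleolar RNAs guide the chemical modification of ribosomal RNA: box C/D snoRNAs direct methylation of the ribose, and box H/ACA snoRNAs direct the conversion of uridine to pseudouridine. In vertebrates most of them are cut from introns of host genes. The hosts described here have spliced RNAs with little or no coding role, and several of these RNAs are known to be degraded by nonsense-mediated decay when they are translated. GAS5 is named for its accumulation in growth-arrested cells, and many snoRNA hosts share with ribosomal protein genes a start site within a run of pyrimidines.

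By their RefSeq spans the 10 genes hold 36 small RNAs, of which 25 have names of the box C/D kind and 10 of the box H/ACA kind. GAS5 holds 11, SNHG1 holds 9, SNHG12 holds 4, SNHG16 holds 3, SNHG3, SNHG5 and SNHG7 hold 2 each, and SNHG6, SNHG8 and SNHG15 hold 1 each. The following intronic snoRNAs are shown because they are the ones that the GENCODE annotation on GRCh37 places in these genes with a box C core and a box D. They stand for the host with the largest change, SNHG12 (SNORD99, chr1:28905261-28905334, minus strand), for a host in the middle, SNHG16 (SNORD1B, chr17:74557191-74557274, plus strand), and for GAS5 (SNORD78, chr1:173834760-173834824, minus strand). Capitals mark the first GATG, the core of box C, and the last CTGA, box D, which lie near the ends and are brought together in the folded RNA.
SNORD99: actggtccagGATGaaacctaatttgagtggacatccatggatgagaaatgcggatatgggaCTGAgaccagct
SNORD1B: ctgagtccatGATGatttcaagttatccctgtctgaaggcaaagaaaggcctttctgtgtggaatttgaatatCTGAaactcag
SNORD78: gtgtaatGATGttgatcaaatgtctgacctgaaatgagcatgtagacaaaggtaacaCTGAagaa

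The start sites of 8 of the 10 genes were matched by symbol in RefSeq (GRCh38.p14). The windows below run from 10 bases before the start to 20 bases after it on the strand of the gene, and are shown for SNHG12 and SNHG7, hosts with large losses in both lines, and for SNHG5 and GAS5, abundant hosts that lost less. They lie at chr1:28581854-28581883, chr9:136728165-136728194, chr6:85678714-85678743 and chr1:173869026-173869055 in that order, all on the minus strand, and capitals mark the longest run of C and T.
SNHG12: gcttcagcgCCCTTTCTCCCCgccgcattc
SNHG7: CCTTCTCgtcctctgcgtgcgccggaggct
SNHG5: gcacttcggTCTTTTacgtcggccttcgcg
GAS5: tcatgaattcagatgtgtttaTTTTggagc
A C followed by at least 4 further C or T letters, with that C within 10 bases of the start on either side and read on the strand of the gene, was found for 5 of the 8 (SNHG5, SNHG7, SNHG8, SNHG12 and SNHG16) and for 31.4% of all 35116 promoters. Each host was read at 1 RefSeq start only, so a host without the pattern, such as GAS5, may carry it at another start. These starts were not compared with the GENCODE spans on GRCh37. The letters CACGTG, the E-box bound by MYC and other factors and the same on both strands, lay within 250 bases before to 50 bases after the start in 1 of the 8, SNHG7, and in 7.26% of all promoters. The genes with the pyrimidine pattern thus include SNHG12, which lost the largest share of its RNA, as well as SNHG5, which kept 81.9% in Ku and 51.0% in Cov cells at 250 nM, and the pattern is a match of letters only.

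The values are FPKM, fragments scaled by transcript length and library size, which the authors scaled to spike-in RNAs added after RNA samples had been set to equal cell number. A change on this scale is a change of RNA per counted cell, and fewer cells of a kind and less RNA per cell cannot be told apart in bulk RNA. Depth is unknown because the tables hold no counts. The 14251 genes above 1 FPKM in at least 1 of the 12 libraries are called active below, and all 10 hosts are among them. Replicates correlated across these genes with r of 0.968 to 0.983, and the median spike-in deviated from DMSO by -0.0058 to 0.0451 on the log2 scale over all libraries. Fold changes are differences of log2(FPKM + 1). They were tested with limma across all active genes of a line, and a gene counts as called where its log2 fold change is beyond 0.5 and its p, adjusted by Benjamini-Hochberg, is under 0.001. Both doses were compared with the same DMSO libraries, so their results are given side by side. The tables of the lines were normalized separately, and differences between lines were not tested. The median log2 fold change of all active genes on the spike-in scale was -0.40 in Ku and -0.85 in Cov cells for the lower dose and -1.11 and -1.31 for the higher, so a direction given below is one on this scale unless another is named. For comparison, each library was also scaled to an equal median FPKM, which left medians at 250 nM of 0.285 in Ku and 0.31 in Cov cells, or by the median of ratios, which left -0.000879 and 0.0109.

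In cells given DMSO the 10 hosts spanned a wide range of levels, and their order was much alike in both lines. SNHG5 was the highest, with FPKM of 643 and 541 in the Ku DMSO libraries and 832 and 944 in the Cov DMSO libraries, which are ranks 200 and 162 among the active genes. GAS5 and SNHG6 followed, with means of 508 ± 51.3 and 411 ± 20.02 FPKM (SD, n = 2) in Ku cells and of 572 ± 62.8 and 627 ± 12.6 FPKM in Cov cells. Each of these 3 hosts lay above at least 98.1% of active genes in either line.
SNHG8 (177 ± 20.5 in Ku, 319 ± 43.96 FPKM in Cov) and SNHG1 (150 ± 18.3 and 160 ± 11.7 FPKM) came next in both. SNHG12, SNHG7, SNHG15 and SNHG16 stood between 48.2 and 74.0 FPKM in Ku cells, and between 34.8 FPKM for SNHG12 and 114 FPKM for SNHG7 in Cov cells. SNHG3 was the lowest, at 25.3 ± 3.01 FPKM in Ku and 23.8 ± 0.562 FPKM in Cov cells, ranks 4503 and 5276. In Ku DMSO libraries the neighbours SNHG5 and GAS5, SNHG8 and SNHG1, and SNHG12 and SNHG7 overlapped, whereas in Cov DMSO libraries no neighbours in the order overlapped. SNHG12 was the host whose place differed most between the lines, being number 6 in Ku and number 9 in Cov cells.

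**Figure D1:**
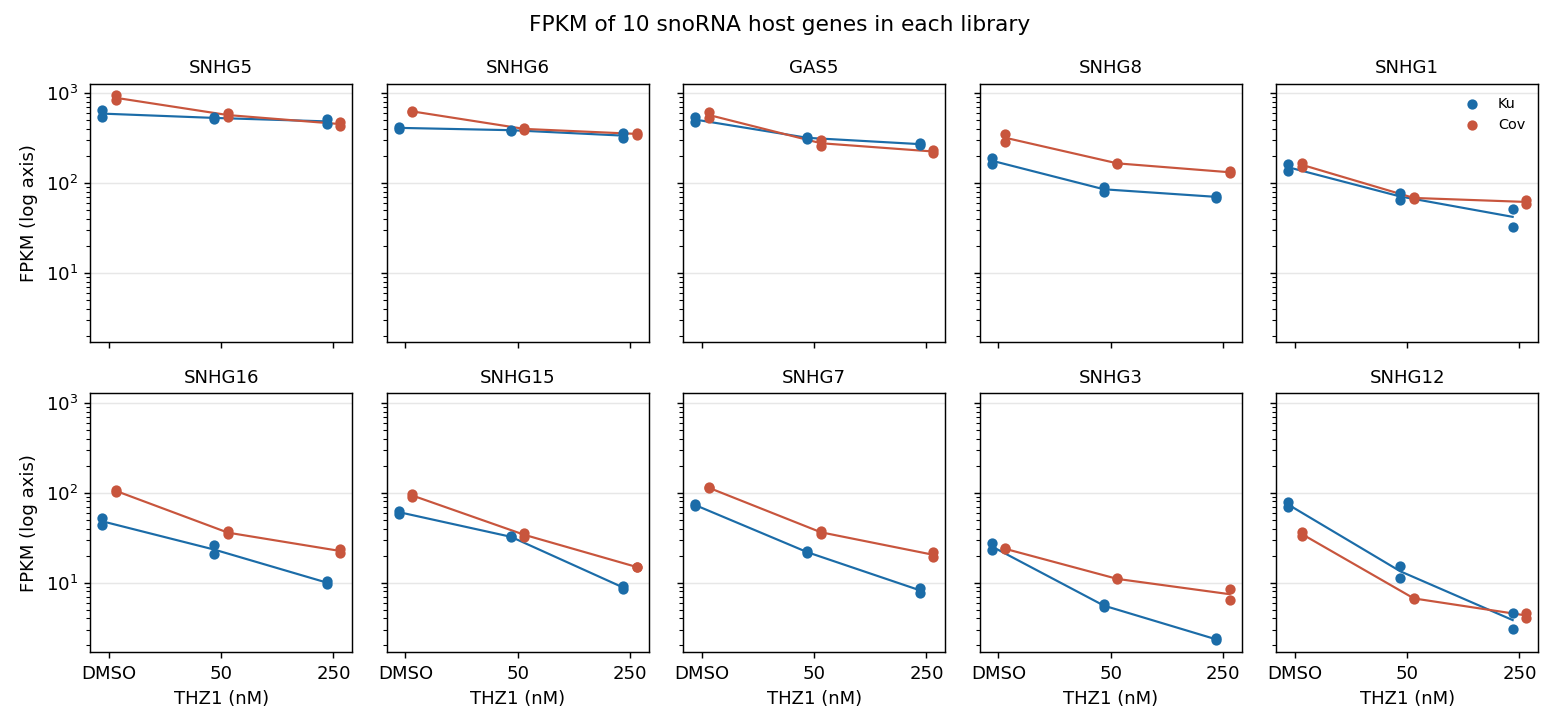
FPKM (log axis) of each host gene in every library against THZ1 dose, with Ku libraries in blue, Cov libraries in red, points for single libraries and lines through the group means. SNHG5, SNHG6 and GAS5 start highest and slope least in Ku cells on this spike-in scale, while SNHG12 goes from 74.0 to 3.83 FPKM there. The slopes of SNHG5, SNHG6 and GAS5 turn upward when libraries are scaled to equal medians.

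With rising dose the levels of nearly all hosts went down step by step on the spike-in scale. In Ku cells the groups followed the order DMSO, 50 nM, 250 nM with no overlap for 9 of the 10 hosts, as for 66.7% of active genes. The exception was SNHG5, whose lower DMSO library (541 FPKM) was level with the higher 50 nM library (542 FPKM). In Cov cells this order held for 10 of 10 hosts and for 73.8% of active genes. Taken pair by pair, DMSO lay above 50 nM without overlap for 9 hosts (75.8% of active genes) in Ku and 10 (95.7%) in Cov cells, DMSO above 250 nM for 10 (95.9%) and 10 (95.6%), and 50 nM above 250 nM for 10 (87.7%) and 10 (75.6%). At 250 nM, 8 of 10 hosts were called lower than DMSO in Ku cells, beside 68.6% of active genes, and 10 of 10 in Cov cells, beside 84% of active genes. The counts thus lie near those of the transcriptome. No host had a positive fold change on the spike-in scale, so 0 were called higher by limma or lay higher at an unadjusted p under 0.05. Of active genes, 0.0842% were called higher at 50 nM, 0.0491% at 250 nM and 0.0421% at 250 nM against 50 nM in Ku cells, and 0.0772%, 0.105% and 0.0842% in Cov cells.

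The hosts differed more in the size of the change than in its presence. In Ku cells at 250 nM their log2 fold changes ran from -3.98 for SNHG12 to -0.29 for SNHG5, a width of 3.69 log2 units, with a median of -1.999 beside -1.11 for all active genes, of which the middle 90% lay between -2.80 and -0.08. In Cov cells they ran from -2.76 for SNHG12 to -0.83 for SNHG6, a width of 1.92, with a median of -1.46 beside -1.31. In Cov cells the median of the hosts lay above that of all genes on the other scales, at 0.53 beside 0.31 after equal-median scaling and at 0.084 beside 0.011 by the median of ratios. On the spike-in scale the Cov order also turned with a minimum of 10 FPKM, at -1.46 beside -1.5. It turned as well with 0.1 in place of 1 added to FPKM, at -1.53 beside -1.55. The Ku medians stood at -2 beside -1.29 and at -2.06 beside -1.39 with these settings. In Ku cells the most reduced host thus lay below the middle 90% of active genes, and the least reduced lay inside it. SNHG12 was the most reduced and SNHG5 and SNHG6 the least reduced in both lines, on the spike-in scale and on the 2 other scales, where SNHG5 and SNHG6 rose.

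**Figure D2:**
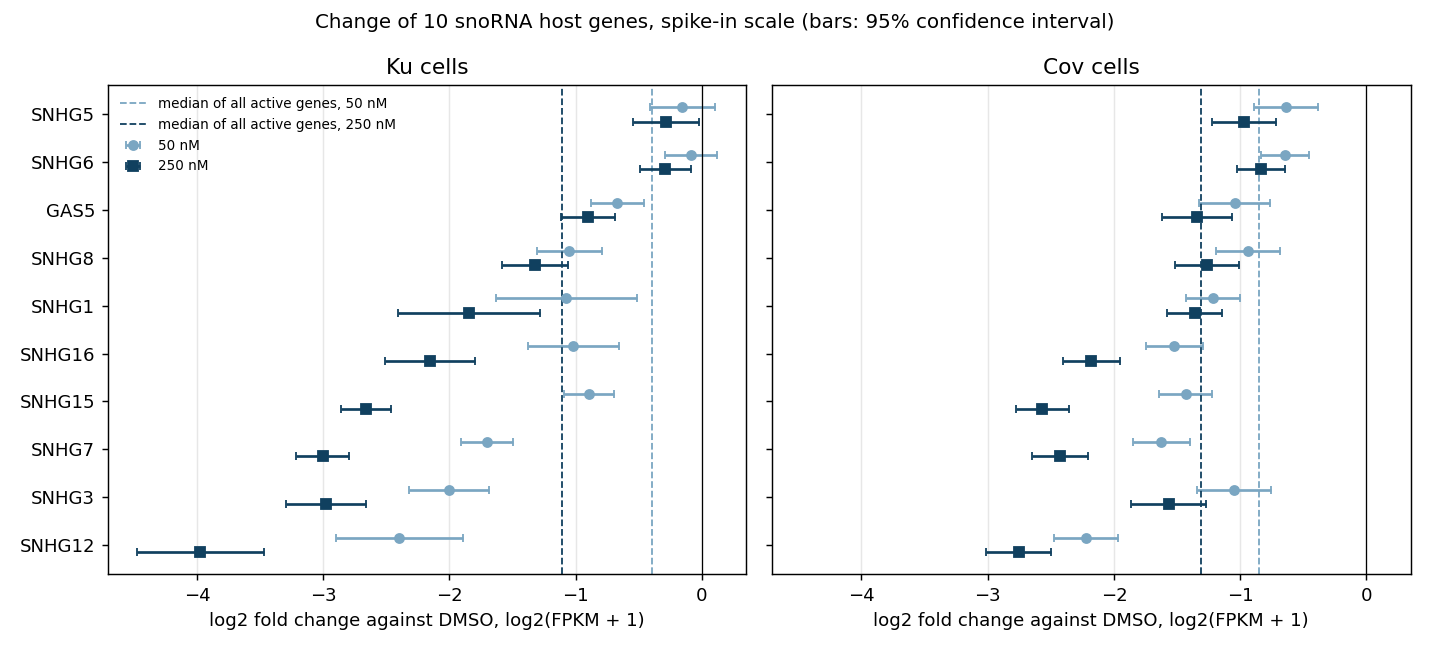
Log2 fold change of each host against DMSO at 50 nM (light circles) and 250 nM (dark squares) on the spike-in scale, with 95% confidence intervals from limma and dashed lines at the medians of all active genes. In Ku cells the hosts at 250 nM spread from -3.98 (SNHG12) to -0.29 (SNHG5) around a median of all genes of -1.11. The points of SNHG5, SNHG6, GAS5, SNHG8 and SNHG1 at 250 nM change sign in both lines when libraries are scaled to equal medians, and SNHG3 does so in Cov cells.

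SNHG12 lost the largest share of its RNA in both lines. The gene lies at chr1:28905050-28909644 (GRCh37, minus strand, lncRNA) and holds SNORA16A, SNORA44, SNORA61 and SNORD99. In Ku cells its FPKM was 78.0 and 69.9 in DMSO, 15.3 and 11.4 at 50 nM, and 3.01 and 4.64 at 250 nM. In Cov cells the libraries read 32.9 and 36.8, then 6.58 and 6.76, then 4.63 and 3.99 FPKM. The groups did not overlap at any step in either line, and 5.18% of the DMSO mean was left at 250 nM in Ku and 12.4% in Cov cells. The log2 fold changes at 250 nM were -3.98 ± 0.205 (SE) in Ku cells (limma, Benjamini-Hochberg adjusted p = 1.44e-05) and -2.76 ± 0.107 in Cov cells (limma, adjusted p = 9.39e-07). A more negative fold change was found for 0.730% of active genes in Ku cells and 5.25% in Cov cells. SNHG12 was also lower, and called, after equal-median scaling (-2.18 in Ku, -0.87 in Cov) and after median-of-ratios scaling (-2.66 and -1.29). TRNAU1AP, a gene on the other strand whose end overlaps that of SNHG12 by a few bases, stood at 35.4% of its DMSO mean in Ku and 30.8% in Cov cells.

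SNHG3 and SNHG7 came next in Ku cells. SNHG3, the host of SNORA73A and SNORA73B, whose box H/ACA RNAs take part in the cutting of ribosomal RNA precursors, lies at chr1:28832492-28837404 (plus strand). Its Ku libraries gave FPKM of 27.4 and 23.2 in DMSO, 5.77 and 5.32 at 50 nM, and 2.27 and 2.40 at 250 nM. Its Cov libraries gave 23.4 and 24.2, then 10.9 and 11.1, then 8.41 and 6.45 FPKM. The libraries are cleanly ordered by dose in both lines, but 9.23% of the DMSO mean remained in Ku cells at 250 nM and 31.2% in Cov cells. The log2 fold change was -2.98 ± 0.129 in Ku (limma, adjusted p = 1.00e-05) and -1.57 ± 0.124 in Cov cells (limma, adjusted p = 1.18e-05), and after equal-median scaling it was -1.29 in Ku cells but 0.36, not called, in Cov cells. SNHG3 lies within the span of RCC1 on the same strand, a protein-coding gene of the nuclear transport system, whose means went from 107 to 49.5 to 28.3 FPKM in Ku cells and from 74.2 to 35.6 to 28.8 FPKM in Cov cells. How reads were divided between SNHG3 and RCC1 is not given in the sources used here, so the level of SNHG3 is uncertain.

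SNHG7 (chr9:139615818-139622636, minus strand; host of SNORA17A and SNORA17B) fell in both lines. In Ku cells its FPKM was 74.1 and 71.9 in DMSO, 21.2 and 22.4 at 50 nM, and 7.76 and 8.69 at 250 nM. In Cov cells the values were 113 and 115, then 34.7 and 37.9, then 19.1 and 21.8 FPKM. Replicates of SNHG7 lay close together at each dose, and 11.3% and 17.9% of the DMSO means remained at 250 nM. The log2 fold changes were -3.01 ± 0.0840 (limma, adjusted p = 6.52e-06) and -2.43 ± 0.0946 (limma, adjusted p = 9.39e-07), and they stayed negative on the other scales, at -1.13 and -1.63 in Ku and -0.40 and -0.85 in Cov cells.

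SNHG15 (chr7:45022618-45026560, minus strand; host of SNORA9) fell at both doses in both lines on the spike-in scale. Its Ku libraries read 63.2 and 58.7 FPKM in DMSO, 32.1 and 32.6 at 50 nM, and 8.40 and 9.24 at 250 nM. In Cov cells they read 89.6 and 97.3, then 35.6 and 32.5, then 15.05 and 14.8 FPKM. SNHG15 in Ku cells thus kept 53.1% of its DMSO mean at 50 nM and 14.5% at 250 nM, and in Cov cells it kept 36.4% and 16.0%. The log2 fold changes at 250 nM were -2.66 ± 0.0808 (limma, adjusted p = 6.59e-06) and -2.57 ± 0.0882 (limma, adjusted p = 8.16e-07), negative on every scale (-0.78 and -1.28 in Ku, -0.55 and -1.001 in Cov cells).

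SNHG16 (chr17:74553809-74667067, plus strand; host of SNORD1A, SNORD1B and SNORD1C) fell to about the same share of DMSO in the lines at 250 nM. The Ku libraries gave 53.0 and 43.3 FPKM in DMSO, 25.9 and 20.6 at 50 nM, and 10.4 and 9.56 at 250 nM, and the Cov libraries gave 103 and 107, then 34.4 and 37.6, then 23.9 and 21.1 FPKM. At 50 nM 48.3% of the DMSO mean was left in Ku and 34.2% in Cov cells. At 250 nM 20.8% and 21.4% of the DMSO means were left. The log2 fold changes were -2.15 ± 0.146 (limma, adjusted p = 3.14e-05) and -2.18 ± 0.0945 (limma, adjusted p = 1.09e-06), and negative on the other scales as well, from -0.77 to -0.15. The annotated span of 113259 bases is far longer than those of the other hosts and covers ST6GALNAC2 and ST6GALNAC1 on the other strand, whose means in DMSO were at most 5.30 FPKM.

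SNHG1 and SNHG8 took a middle place. SNHG1 (chr11:62619450-62623425, minus strand; host of SNORD22 and SNORD25 to SNORD31) is known for carrying its snoRNAs in successive introns. It gave 163 and 137 FPKM in Ku DMSO libraries, 77.5 and 63.9 at 50 nM, and 32.2 and 51.7 at 250 nM, and in Cov cells 151 and 168, then 66.9 and 69.4, then 64.3 and 58.8 FPKM. As a ratio, the Ku replicates at 250 nM were further apart than those of the other hosts, and in Cov cells nearly all of the loss was present at 50 nM. At the higher dose SNHG1 changed by -1.84 ± 0.228 log2 units in Ku (limma, adjusted p = 0.000361) and -1.36 ± 0.0901 in Cov cells (limma, adjusted p = 5.00e-06), but by 0.11 and 0.69 after equal-median scaling and by -0.41 and 0.24 by the median of ratios. In Ku cells the call of SNHG1 was lost without DMSO replicate 1 or without DMSO replicate 2 (limma, adjusted p of 0.000213 to 0.00356 over the 6 libraries left out).

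SNHG8 (chr4:119199858-119206471, plus strand; host of SNORA24) read 192 and 163 FPKM in Ku DMSO libraries, 91.2 and 78.9 at 50 nM, and 68.8 and 71.3 at 250 nM. In Cov cells it read 288 and 350, then 166 and 164, then 135 and 128 FPKM. SNHG8 thus halted near 40% of its DMSO level in both lines at 250 nM, with 39.5% left in Ku and 41.3% in Cov cells. The log2 fold changes were -1.32 ± 0.105 (limma, adjusted p = 5.52e-05) and -1.26 ± 0.107 (limma, adjusted p = 1.64e-05), close to the medians of all genes, and they turned to 0.64 and 0.80 after equal-median scaling and to 0.12 and 0.34 by the median of ratios.

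GAS5 (chr1:173827697-173838020, minus strand), the host of SNORA103, SNORD44, SNORD47 and SNORD74 to SNORD81, remained among the most abundant RNAs. In Ku cells its FPKM was 544 and 472 in DMSO, 328 and 309 at 50 nM, and 279 and 263 at 250 nM. In Cov cells it was 528 and 617, then 255 and 299, then 231 and 217 FPKM. Most of the loss of GAS5 was thus present at the lower dose, where the share left in Ku cells was 62.6% at 50 nM and 53.3% at 250 nM, and in Cov cells 48.4% and 39.2%. At 250 nM the log2 fold change was -0.90 ± 0.0862 in Ku cells (limma, adjusted p = 0.000115) and -1.35 ± 0.117 in Cov cells (limma, adjusted p = 1.86e-05), and it turned to 1.08 and 0.73 after equal-median scaling and to 0.55 and 0.27 by the median of ratios. The call of GAS5 in Ku cells was lost without 250 nM replicate 2 (limma, adjusted p of 0.000225 to 0.00109 over the 6 libraries left out). The antisense gene GAS5-AS1 was low throughout, with 0.496 and 0.444 FPKM in DMSO, 0.281 and 0.237 at 50 nM and 0.516 and 0.269 at 250 nM for Ku, and 0.551 and 0.329, then 0.393 and 0.404, then 1.29 and 1.16 FPKM for Cov. Its 250 nM libraries thus lay above its DMSO libraries in Cov cells, while those of GAS5 lay below.

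SNHG5 and SNHG6 kept most of their RNA in Ku cells. SNHG5 (chr6:86360209-86388650, minus strand) hosts SNORD50A and SNORD50B, and SNHG6 (chr8:67832796-67838633, minus strand) hosts SNORD87. SNHG5 gave 643 and 541 FPKM in Ku DMSO libraries, 542 and 518 at 50 nM, and 516 and 454 at 250 nM. SNHG6 gave 425 and 397, then 393 and 381, then 360 and 314 FPKM. Both 250 nM libraries lay below both DMSO libraries for either gene, with 81.9% of SNHG5 and 82.0% of SNHG6 left. Neither was called in Ku cells at 250 nM: the log2 fold change of SNHG5 was -0.29 (95% interval -0.55 to -0.02; limma, adjusted p = 0.0413) and that of SNHG6 was -0.29 (95% interval -0.49 to -0.08; limma, adjusted p = 0.0161). About 90% of active genes had more negative fold changes (89.7% for SNHG5 and 89.6% for SNHG6).

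In Cov cells the same genes were called lower. SNHG5 read 832 and 944 FPKM in DMSO, 541 and 599 at 50 nM, and 474 and 432 at 250 nM, and SNHG6 read 618 and 636, then 393 and 406, then 358 and 345 FPKM. All treated libraries lay below all DMSO libraries, and 51.0% of SNHG5 and 56.1% of SNHG6 were left at 250 nM. The log2 fold changes were -0.97 ± 0.107 (limma, adjusted p = 7.00e-05) and -0.83 ± 0.0798 (limma, adjusted p = 3.14e-05), less than the median of all genes. On the other scales both genes were called higher at 250 nM in both lines, SNHG5 by 1.69 and 1.17 in Ku and 1.10 and 0.64 in Cov cells, and SNHG6 by 1.69 and 1.17 and by 1.24 and 0.78.

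At 50 nM, 5 of 10 hosts were called lower in Ku cells, where 11.3% of active genes were called lower. They were SNHG12 (-2.40), SNHG3 (-2.004), SNHG7 (-1.70), SNHG8 (-1.05) and SNHG15 (-0.89 on the log2 scale). SNHG1 (-1.07), SNHG16 (-1.02) and GAS5 (-0.67) missed the threshold, with limma adjusted p of 0.00960, 0.00235 and 0.00164. SNHG5 stood at -0.15 (95% interval -0.42 to 0.11) and SNHG6 at -0.08 (-0.29 to 0.12). The median of the hosts was -1.03, beside -0.40 for all active genes. The count rested on every library: without any 1 of the 6 Ku libraries, each in turn, limma called 0 hosts, while 8 to 9 were lower at an unadjusted p under 0.05. In these fits 0.0421% to 0.919% of active genes were called lower, so the calls were lost across the transcriptome. After equal-median scaling 1 host was called lower, beside 0.737% of active genes.
In Cov cells at 50 nM 10 of 10 hosts were called lower, as were 70.5% of active genes. Their log2 fold changes ran from -2.22 for SNHG12 to -0.64 for SNHG5, with a median of -1.13 beside -0.85. Leaving out 1 library at a time gave 7 to 9 calls, beside 30.3% to 69.7% of active genes, and limma called 0 hosts lower after equal-median scaling, with 3 lower and 4 higher at an unadjusted p under 0.05.

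The step from 50 nM to 250 nM differed in size among the hosts. In Ku cells SNHG15 (-1.77), SNHG12 (-1.58), SNHG7 (-1.31), SNHG16 (-1.13) and SNHG3 (-0.97) were called lower at 250 nM than at 50 nM, 5 of 10 hosts beside 36% of active genes. In Cov cells SNHG15 (-1.14) and SNHG7 (-0.80) were, 2 of 10 beside 24.4%. SNHG15 thus had the most negative step of the 10 hosts in both lines. For GAS5 and SNHG8 the step was small, at -0.23 (95% interval -0.44 to -0.02) and -0.27 (-0.53 to -0.01) in Ku and -0.30 (-0.58 to -0.02) and -0.33 (-0.58 to -0.07) in Cov cells. Without 1 library at a time the Ku count was 1 to 2, beside 5.55% to 32.3% of active genes, and the Cov count 1 to 2, beside 10.7% to 27.9%. SNHG15 was called in all 6 such fits of each line, SNHG7 in 5 of 6 in Ku cells (not without 250 nM replicate 1) and 1 of 6 in Cov cells (without 50 nM replicate 1), and SNHG12, SNHG16 and SNHG3 in none in Ku cells. After equal-median scaling limma called 0 hosts lower and 2 higher for this step in each line, beside 6.55% and 6.46% of active genes in Ku and 4.95% and 3.16% in Cov cells, and at an unadjusted p under 0.05 it placed 2 lower and 5 higher in Ku cells, against 1 and 6 for Cov, and of the hosts called on the spike-in scale SNHG16 and SNHG3 in Ku and SNHG7 in Cov cells turned positive.

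Because most of the transcriptome moved down on the spike-in scale, the hosts were also placed against the other genes. At 250 nM SNHG12, SNHG3, SNHG7 and SNHG15 were called lower on all 3 scales in Ku cells, and SNHG12 in Cov cells. SNHG5 and SNHG6 were called lower or not called on the spike-in scale and called higher on the other scales. After equal-median scaling the counts of hosts lower and higher were 4 and 4 in Ku cells, where 11.6% and 26.9% of active genes were called in those directions, and 1 and 5 in Cov cells, where the shares were 11.3% and 26.4%. By the median of ratios they were 4 and 2 in each line, beside 19% and 11.1% in Ku and 18.9% and 8.57% in Cov cells.

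**Figure D3:**
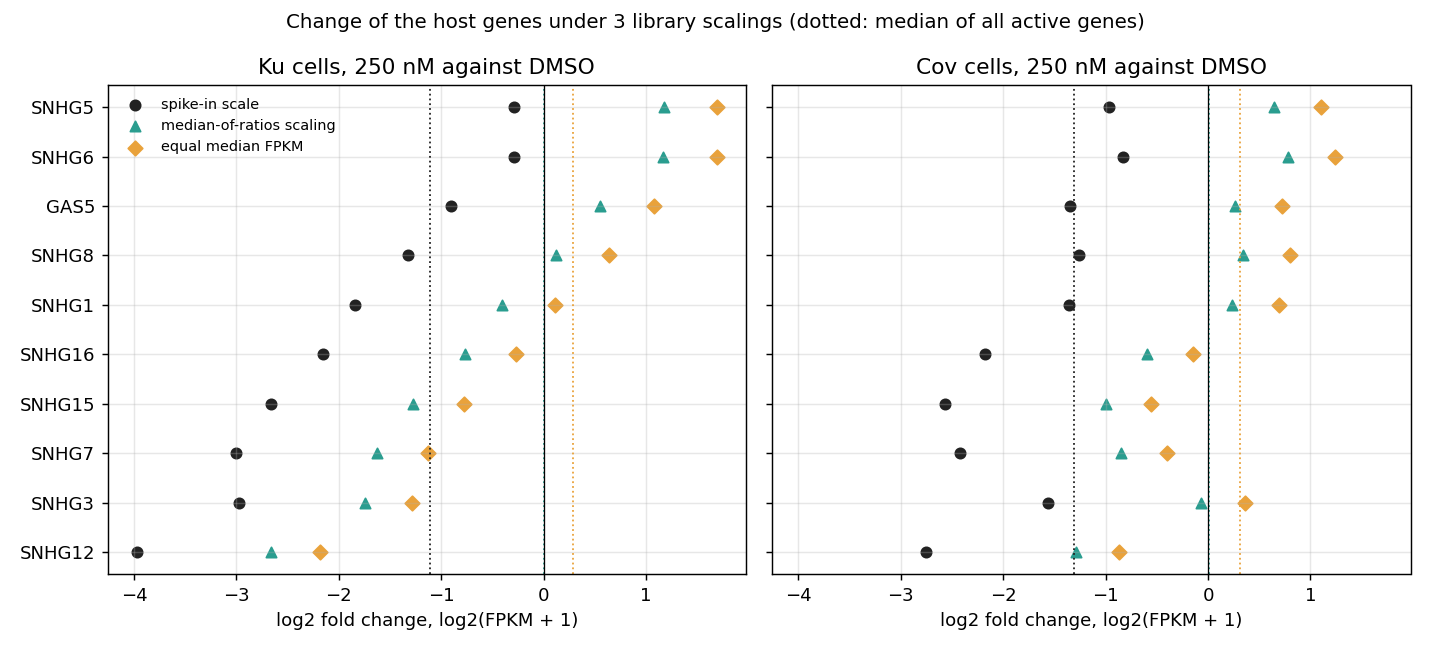
Log2 fold change of each host at 250 nM against DMSO on the spike-in scale (black circles), after median-of-ratios scaling (green triangles) and after scaling to equal median FPKM (orange diamonds), with dotted lines at the median of all active genes on each scale. The order of the hosts is nearly the same on each scale, and the zero line falls between SNHG1 and SNHG16 after equal-median scaling in Ku cells.

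The makeup of the 10 hosts does not depend on the scale of a library. SNHG5, SNHG6 and GAS5 together made up 71.3 ± 0.0533% (SD, n = 2) of the summed FPKM of the hosts in Ku DMSO libraries, 83.1 ± 0.888% at 50 nM and 88.2 ± 2.08% at 250 nM. In Cov cells the shares were 71.1 ± 0.156%, 77.7 ± 0.976% and 79.6 ± 0.120%. The 3 most abundant hosts thus took a larger part of the whole with dose in either line. SNHG5 alone went from 27.9 ± 0.721% to 39.1 ± 1.30% in Ku cells, while GAS5 went from 23.9 ± 0.134% to 21.9 ± 0.311%, so the larger share came from SNHG5 and SNHG6. SNHG12 went from 3.49 ± 0.0629% to 0.313 ± 0.111% in Ku and from 1.19 ± 0.00424% to 0.333 ± 0.0194% in Cov cells. The sum of the hosts was 0.172%, 0.149% and 0.195% of the FPKM of all genes at DMSO, 50 nM and 250 nM in Ku cells, and 0.186%, 0.143% and 0.170% in Cov cells. With 2 libraries a group, an exact permutation test of such a share cannot give a p below 0.33, and none was run.

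**Figure D4:**
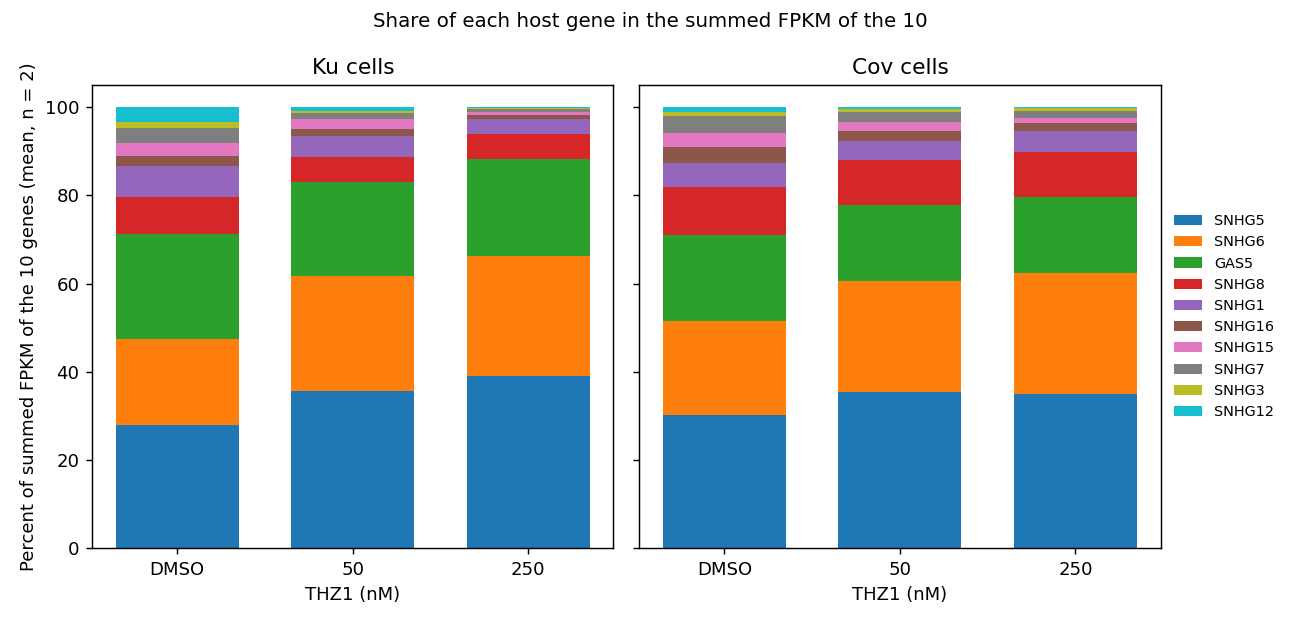
Percent of the summed FPKM of the 10 hosts taken by each host, as the mean of 2 libraries per group, in Ku cells (left) and Cov cells (right). The lower 3 blocks, SNHG5, SNHG6 and GAS5, grow from 71.3% to 88.2% in Ku cells and from 71.1% to 79.6% in Cov cells, and the values do not change with the scaling of a library.

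Of the 36 small RNAs held by the hosts, 30 have rows of their own in the tables and 13 of these were active. A poly(A) library with reads of 75 bases is not made to measure such short RNAs, and many rows jumped between a value below 1 FPKM and a very high one. SNORD26 in SNHG1 read 4534 FPKM in 1 Ku library at 50 nM and below 1 FPKM in the other 11 libraries. Over all 30 rows and 4 libraries a dose, values above 1 FPKM numbered 37 of 120 in DMSO (30.8%), 18 at 50 nM (15%) and 14 at 250 nM (11.7%). Over the 331 other rows with names of snoRNAs the shares were 17.4%, 12.2% and 9.59%, so fewer values were above 1 FPKM with dose in both sets. The rows above 1 FPKM in at least 8 of the 12 libraries, a minimum chosen after the values were seen, were SNORD22 (in SNHG1), SNORA61 (SNHG12), SNORD76 (GAS5) and SNORA9 (SNHG15).

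SNORD22 was above 1 FPKM in every library, with 303 and 299 FPKM in Ku DMSO libraries, 311 and 195 at 50 nM, and 36.1 and 75.1 at 250 nM. In Cov cells it read 252 and 417, then 228 and 194, then 11.6 and 25.6 FPKM. The 50 nM libraries of SNORD22 thus overlapped those of DMSO in Ku cells, and the 250 nM libraries lay below both other groups in each line. SNORA61 read 516 and 486 FPKM in Ku DMSO libraries, 110 and 73.2 at 50 nM, and 20.4 and 10.7 at 250 nM. In Cov cells it read 154 and 204, then 0.0851 and 55.1, then 29.7 and 44.01 FPKM. The treated libraries of SNORA61 lay below those of DMSO in each line. SNORD76 read 6652 and 6094 FPKM in Ku DMSO libraries, 6682 and 3262 at 50 nM, and 1355 and 1867 at 250 nM, and in Cov cells 2699 and 4795, then 0.0725 and 1629, then 0.0615 and 0.0645 FPKM. SNORA9 read 0.129 and 77.9 FPKM in Ku DMSO libraries, 0.106 and 77.7 at 50 nM, and 0.0680 and 0.0719 at 250 nM, and in Cov cells 110 and 97.2, then 17.2 and 16.5, then 17.4 and 19.3 FPKM. Replicates of SNORD76 and SNORA9 thus stood on either side of 1 FPKM in some groups.

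Some other rows were above 1 FPKM mainly in DMSO, and the minimum of 8 libraries leaves them out. SNORA24, in SNHG8, read 99.5 and 63.5 FPKM in Ku and 56.4 and 36.5 FPKM in Cov DMSO libraries, and was below 1 FPKM in all 8 treated libraries. SNORA44, in SNHG12, was above 1 FPKM in 4 of 4 DMSO libraries, 1 of 4 at 50 nM and 0 of 4 at 250 nM. SNORD99, whose sequence is given above, read 837 and 725 FPKM in Cov DMSO libraries and was below 1 FPKM in the other 10 libraries. Rows that went otherwise were SNORD26, given above, and SNORA16A and SNORD79. SNORA16A, in SNHG12, was above 1 FPKM in 2 of 4 libraries in DMSO, 0 at 50 nM and 2 at 250 nM. For SNORD79, in GAS5, these numbers were 3, 3 and 0. These rows were picked after their values were seen and carry no test. Reads of the unspliced host and of the processed snoRNA cannot be told apart in these rows.

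The 10 hosts were set beside lists of related genes, in which NOP56 and DKC1 count both as protein-coding hosts and as proteins of snoRNA particles. Of 19 other non-coding snoRNA hosts, 9 have rows and 8 were active. At 250 nM 7 of these 8 were called lower in each line, beside 68.6% of active genes in Ku and 84% in Cov cells, with medians of -1.07 in Ku and -1.19 in Cov cells that turned to 0.80 and 0.73 after equal-median scaling and to 0.31 and 0.30 by the median of ratios. In Ku cells they ran from SNHG4 (-2.46) to ZFAS1 (-0.08, not called), and in Cov cells from SNHG10 (-1.46) to SNHG9 (-0.14, not called). At 50 nM limma called 0 of the 8 lower in Ku cells, where 7 were lower at an unadjusted p under 0.05, and 5 in Cov cells, beside 11.3% and 70.5% of active genes. ZFAS1 in Ku and SNHG9 in Cov cells were thus less reduced than any of the 10.

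Of 52 protein-coding hosts, mostly of ribosomal proteins and translation factors, 28 in Ku and 48 in Cov cells were called lower at 250 nM, beside the same 68.6% and 84%, with medians of -0.58 and -0.91. After equal-median scaling 41 and 38 were called higher, beside 26.9% and 26.4% of active genes, with medians of 1.40 and 1.17. By the median of ratios 23 and 30 were called higher, beside 11.1% and 8.57%. The extremes were CHD8, a chromatin remodeller (-3.10), and RPL21, a ribosomal protein gene (0.36, not called), in Ku cells, and WDR43, a ribosome assembly factor (-3.85), and RPS2, a ribosomal protein gene (-0.61, not called), in Cov cells. Replicates of RPL21 lay far apart in some groups, with 352 ± 163 FPKM (SD, n = 2) at 50 nM in Ku and 107 ± 151 FPKM in Cov cells. At 50 nM 5 and 26 of the 52 were called lower, beside 11.3% and 70.5% of active genes. The medians of these hosts were nearer 0 than those of all active genes, -1.11 and -1.31, on the spike-in scale.

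The 8 proteins of snoRNA particles, which bind, fold and carry these RNAs, were all called lower at 250 nM, where 68.6% and 84% of active genes were, with medians of -0.90 in Ku and -1.36 in Cov cells. But 7 and 6 of them were called higher after equal-median scaling, beside 26.9% and 26.4% of active genes. By the median of ratios 3 and 3 were called higher, beside 11.1% and 8.57%. The extremes were GAR1 (-1.81) and NHP2L1 (-0.73) in Ku cells, and GAR1 (-1.88) and NHP2 (-0.89) in Cov cells, where GAR1 and NHP2 belong to box H/ACA particles and NHP2L1 to box C/D particles. The 10 factors of nonsense-mediated decay, the pathway that degrades several of the host RNAs, were likewise all called lower, with medians of -1.58 and -1.72, from SMG8 (-3.02 and -3.30) to UPF3A (-0.90 and -1.08), and the medians were 0.079 and 0.063 after equal-median scaling and -0.36 and -0.33 by the median of ratios. At 50 nM limma called 0 snoRNA particle proteins lower in Ku cells, where 3 were lower at an unadjusted p under 0.05, and 1 decay factor, beside 11.3% of active genes. In Cov cells 7 of 8 and 10 of 10 were, beside 70.5%.

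**Figure D5:**
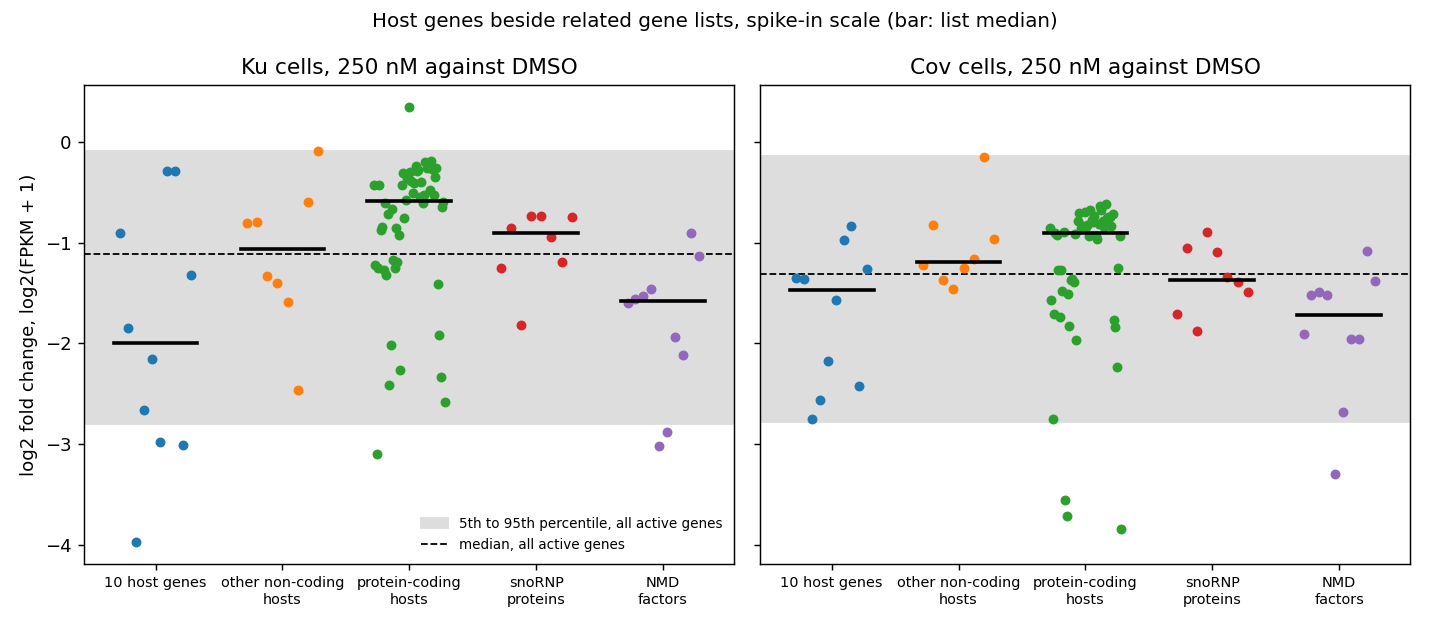
Log2 fold change at 250 nM against DMSO on the spike-in scale for the 10 hosts and 4 related lists, one point per active gene, with black bars at list medians, a dashed line at the median of all active genes and a grey band from their 5th to their 95th percentile. The 10 hosts have a lower median (-1.999) in Ku cells than protein-coding hosts (-0.58), and they reach from -0.29, inside the band, to below it. On other scales the median of all genes moves to about 0 or above, and every point moves with it.

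Outside the hosts, the active genes whose 4 fold changes against DMSO came nearest to the medians of the 10 were ARMC6, DEXI, ATF4, ZNF141 and APOL3, with root mean square differences of 0.0574 to 0.0644 log2 units over these 4 values. The nearest to GAS5 were PSMC3IP, METTL25, SCRN3, CHEK2 and FAM185A, at 0.0193 to 0.0565. PSMC3IP, for one, changed by -0.64 and -0.90 at 50 and 250 nM in Ku cells and by -1.07 and -1.35 in Cov cells.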

How the data were processed

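Per the labels and the methods, the authors mixed ERCC spike-ins into RNA set to equal cell number, prepared stranded poly(A) libraries, sequenced single-end reads, aligned them to hg19 with HISAT, and deposited FPKM from Cufflinks tools (cuffquant, Cuffnorm), scaled by the spike-ins, with separate files for the lines. The strand setting and the gene annotation used in counting are not given in the sources used here. The deposited FPKM are not counts, so depth is unknown and count tests were not used.

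Of 23713 rows, 92 ERCC rows were left out. Genes above 1 FPKM in at least 1 of 12 libraries (14251) were fitted per line on log2(FPKM + 1) with limma 3.58.1 in R 4.3.3 (lmFit, eBayes with trend, 3 groups of 2 libraries, two-sided), with Benjamini-Hochberg adjustment over them. Calls needed an adjusted p under 0.001 and a fold change beyond 0.5 on the log2 scale, as in the study. An exact permutation test of 2 against 2 libraries cannot go below 0.33. In simulated data for 250 nM against DMSO in Ku cells (14251 genes, 100 changed per size), the fit called 3 of 100 genes changed by 1 log2 unit and 52 of 100 changed by 2. In the real comparison 68.6% of active genes were called lower, which makes the adjustment less strict, so these rates do not describe it. A gene that is not called may still differ. Positions come from GENCODE on GRCh37, whose spans may be longer than those the authors used, and start sites and host spans from RefSeq. Software also included version 1.17.8 of data.table for R, and Python 3.11.15 with pandas 2.3.3 and, for figures, matplotlib 3.10.9.

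The members, the gene lists and the tests were chosen with earlier results of these data known. The text names all 10 members, the lowest and highest gene of each list and line at 250 nM, the 5 genes nearest to the members' medians and to GAS5 over 4 fold changes, and snoRNA rows and overlapping genes inside members, of which 1 is not reported here. Alternatives were other pseudocounts, minima, scalings, thresholds and fits, the replicate block, and each library left out. Protein sequences were not used here.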

Additional observations from a re-analysis of the deposited data

How the results depend on the processing

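Of the fold changes of the 10 hosts in 6 comparisons, all negative on the spike-in scale, 35 turned positive after scaling to equal median FPKM and 25 by the median of ratios. After scaling to equal medians, counts of hosts called lower by limma became 1 at 50 nM, 4 at 250 nM and 0 for 250 against 50 nM in Ku cells (2 were called higher, and 2 lower and 5 higher at an unadjusted p under 0.05 for the last), beside 0.737%, 11.6% and 6.55% of active genes. In Cov cells they became 0, 1 and 0 (3 and 4, then 1 and 6, lower and higher at an unadjusted p under 0.05 for the first and last, with 2 called higher for the last), beside 0.147%, 11.3% and 4.95%. By the median of ratios they became 2, 4 and 1 in Ku cells, beside 2.72%, 19% and 11.1%, and 1, 4 and 0 in Cov cells (2 lower and 5 higher unadjusted for the last), beside 0.772%, 18.9% and 7.92%. Hosts called higher by limma were then 0, 2 and 1 in Ku cells, beside 0.519%, 11.1% and 1.39% of active genes. In Cov cells they were 0, 2 and 0, beside 0.14%, 8.57% and 0.498%. At an unadjusted p under 0.05, limma placed 2, 3 and 4 hosts higher in Ku and 2, 5 and 5 in Cov cells. How far these counts come from the shift of all genes or from the spread of replicates was not tested.

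Log2 fold changes that turned positive after equal-median scaling were, at 50 nM in Ku cells, GAS5 0.035, SNHG5 0.55 and SNHG6 0.62, and at 250 nM GAS5 1.08, SNHG1 0.11, SNHG5 1.69, SNHG6 1.69 and SNHG8 0.64. For 250 against 50 nM in Ku cells they were GAS5 1.04, SNHG1 0.48, SNHG16 0.062, SNHG3 0.024, SNHG5 1.14, SNHG6 1.07, SNHG8 0.99 and the median of the hosts 0.27. In Cov cells they were at 50 nM GAS5 0.18, SNHG3 0.10, SNHG5 0.59, SNHG6 0.57, SNHG8 0.28 and the median 0.050, and at 250 nM GAS5 0.73, SNHG1 0.69, SNHG3 0.36, SNHG5 1.10, SNHG6 1.24, SNHG8 0.80 and the median 0.53. For 250 against 50 nM in Cov cells they were GAS5 0.55, SNHG1 0.70, SNHG12 0.19, SNHG16 0.17, SNHG3 0.26, SNHG5 0.52, SNHG6 0.67, SNHG7 0.018, SNHG8 0.52 and the median 0.39.

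By the median of ratios they were SNHG5 0.40 and SNHG6 0.47 at 50 nM in Ku cells, GAS5 0.55, SNHG5 1.17, SNHG6 1.17 and SNHG8 0.12 at 250 nM, and GAS5 0.67, SNHG1 0.11, SNHG5 0.77, SNHG6 0.69 and SNHG8 0.62 for 250 against 50 nM. In Cov cells they were SNHG5 0.39, SNHG6 0.38 and SNHG8 0.089 at 50 nM, GAS5 0.27, SNHG1 0.24, SNHG5 0.64, SNHG6 0.78, SNHG8 0.34 and the median 0.084 at 250 nM, and GAS5 0.28, SNHG1 0.43, SNHG3 0.0081, SNHG5 0.25, SNHG6 0.40, SNHG8 0.25 and the median 0.13 for 250 against 50 nM.

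The count of hosts lower at 50 nM in Ku cells, 5, became 0 without a minimum FPKM or with only the 2 groups compared in the limma fit (8 at an unadjusted p under 0.05 in each; 0.0127% and 0.0632% of all genes fitted were then called lower, against 11.3%), 3 without the mean-variance trend (8.13% of genes) and 8 at an adjusted p under 0.05 (40.2%). For 250 against 50 nM the Ku count of 5 became 2 without a minimum (8.05% of genes), 2 with only the 2 groups compared (33.4%) and 3 without the trend (31.3%), against 36%. The Cov count of 2 became 1 with only the 2 groups compared (17%), 5 at an adjusted p under 0.05 (41.5%) and 1 at a log2 fold change beyond 1 (14.3%), against 24.4%. The cause of these moves was not tested. A pseudocount of 0.1, a minimum of 10 FPKM and a minimum on condition means kept all 6 counts within 1.5 times and turned no direction. The pseudocount of 0.1 and the minimum of 10 FPKM did place the Cov host median at 250 nM above that of all genes fitted.

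Leaving out 1 library at a time, where the lone sample of a group is assumed to vary like the other groups, gave 0 to 0 hosts called at 50 nM in Ku cells, 7 to 8 at 250 nM and 1 to 2 for 250 against 50 nM. In Cov cells it gave 7 to 9, 10 to 10 and 1 to 2. No direction turned. The call of SNHG5 at 50 nM in Cov cells was lost without any 1 library, that of SNHG3 without either DMSO library, and that of SNHG6 without DMSO replicate 2 or either 50 nM library. Of the hosts called lower at 250 nM against DMSO, SNHG1 and GAS5 in Ku cells were the exceptions that lost their call when a library was left out, as given beside their values.

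Deviations of libraries with the same replicate number correlated across genes by -0.00871 to 0.000345 in Ku and by -0.0703 to 0.0282 in Cov cells, so these share a number only. With the replicate block the counts were 5, 8 and 3 in Ku cells, beside 6.94%, 66.6% and 34.7% of active genes, and 8, 10 and 1 in Cov cells, beside 51%, 78.6% and 7.93%.

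Depth is unknown, 2 libraries a group give wide intervals, and the spike-in scale rests on the authors' normalization, which could not be repeated from FPKM.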
